A study of Homo sapiens with 24 samples.

Results

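DHRS2, TEK and ARHGAP25 are 3 of the 26645 gene entries, spike-ins left aside, in a table of raw read counts from breast cancer cells under methionine stress. They were chosen by symbol, as genes among the largest rises of MB468 cells after 12 h without methionine, so the values of MB468 at 0 h and 12 h picked them and are described here without a test. MB468 is MDA-MB-468, a triple-negative breast cancer line that needs methionine to proliferate. MB468res-R8 is a single clone that grew out of MB468 during long culture in homocysteine medium and no longer has that need. Both lines were kept in DMEM with dialyzed serum, vitamin B12, glutamine, and cysteine. Cells of the 0 h groups were in Met+ medium with 100 μM methionine, and all other groups were harvested 0.5, 2, or 12 h after a switch to Met-Hcy+ medium, in which 370 μM DL-homocysteine replaced methionine. Each of the 8 groups of line and time had 3 libraries, 24 in all. No library came from cells left in Met+ medium for 12 h, so the medium and the time since the switch cannot be told apart.

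Methionine feeds S-adenosylmethionine, the methyl donor of the cell, and many cancer lines stop dividing when homocysteine is offered in its place. DHRS2, also called HEP27, is a short-chain dehydrogenase/reductase that acts on dicarbonyl compounds and binds MDM2, a ubiquitin ligase of the growth arrest and DNA damage response. TEK, also called TIE2, is the receptor tyrosine kinase for angiopoietins and is known from endothelial cells, while ARHGAP25 is a GTPase-activating protein for RAC known from white blood cells.

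The 3 genes lie on different chromosomes of GRCh38, all on the plus strand. In GENCODE, DHRS2 spans chr14:23630115-23645639, TEK spans chr9:27109141-27230174, and ARHGAP25 spans chr2:68679601-68826833. The stretches just upstream of their first start in RefSeq (GRCh38.p14) are shown because the 3 genes were high together at 12 h. Capitals mark TATAAA on either strand, and the TEK stretch, 166 of 250 bases, was cut where a GENCODE exon begins. The coordinates are chr14:23629865-23630114, chr9:27108975-27109140, and chr2:68734561-68734810, and the last of these lies inside the longer ARHGAP25 gene of GENCODE.
DHRS2: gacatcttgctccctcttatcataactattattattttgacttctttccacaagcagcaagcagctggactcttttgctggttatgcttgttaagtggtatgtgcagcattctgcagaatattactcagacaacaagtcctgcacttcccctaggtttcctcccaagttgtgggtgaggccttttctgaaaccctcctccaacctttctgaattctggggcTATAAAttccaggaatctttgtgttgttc
TEK: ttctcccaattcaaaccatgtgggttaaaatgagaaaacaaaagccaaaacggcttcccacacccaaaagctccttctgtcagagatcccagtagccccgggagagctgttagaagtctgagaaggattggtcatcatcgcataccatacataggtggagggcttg
ARHGAP25: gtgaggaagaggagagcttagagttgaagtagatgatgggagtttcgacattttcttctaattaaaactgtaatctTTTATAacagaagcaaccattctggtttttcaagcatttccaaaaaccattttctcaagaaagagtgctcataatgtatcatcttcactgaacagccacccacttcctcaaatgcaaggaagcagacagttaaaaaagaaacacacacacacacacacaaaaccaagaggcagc
TATAAA began at position -29 from the start of DHRS2, and its reverse complement at position -174 from that of ARHGAP25. Of 27305 RefSeq windows of 250 bases, 11.2% held TATAAA on either strand. None of the 3 windows held TGATGNAA (3.19% of windows), TGACGTCA (1.75%), TGANTCA (6.57%), CACGTG (6.46%), or GGGCGG (42.2%), searched on both strands with matches allowed to overlap. GC content of the 3 full windows, which for TEK is longer than the stretch printed, was 43.2%, 46.4%, and 38.4%. The median over all windows was 57.6%.

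Libraries held 11745553 to 36496655 counts, and spike-ins took 0.201% to 0.303% of them. Values are normalized counts, that is counts scaled to the mean library size after trimmed-mean (TMM) normalization. The gene filter kept 14741 genes, all 3 among them. TEK passed only through the MB468 12 h libraries, which chose it, whereas ARHGAP25 was also high enough in MB468res-R8 libraries. For scale, 3 counts over a whole MB468 0.5 h group correspond to 1.09 normalized counts. One MB468 library at 2 h, replicate 2, stood apart with 8251 counts of the small nuclear RNA gene RN7SK, against at most 357 in the other 23 libraries, and results that rest on it are given with and without it. The labels do not say whether replicates were separate cultures, so p-values measure the spread between libraries, which may be technical.

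All 3 genes were low in MB468 until 2 h and high in each of its 12 h libraries, and none of them was high in MB468res-R8 at 12 h. DHRS2, the most abundant, went from 30.3 to 43.6 normalized counts at 0 h to at least 1045 at 12 h. TEK and ARHGAP25 went from a few reads or none to about 50 to 60 normalized counts.

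In MB468, DHRS2 measured 36.8, 30.3, and 43.6 normalized counts at 0 h, 40.2, 24.6, and 25.0 at 0.5 h, 55.1, 73.8, and 48.8 at 2 h, and 1139, 1045, and 1199 at 12 h. The lowest 12 h library lay far above every other library of either line. In MB468res-R8 it measured 119, 117, and 101 at 0 h, 75.0, 85.9, and 90.9 at 0.5 h, 109, 113, and 104 at 2 h, and 93.0, 91.1, and 57.6 at 12 h. The resistant clone therefore held more DHRS2 than MB468 in Met+ medium, with no overlap of libraries, and less at 12 h, where 60.0% and 75.3% of all genes tested did not overlap between the lines. The 12 h to 0 h difference in MB468 was 4.97 on the log2 scale, from 36.9 ± 6.64 to 1128 ± 77.4 normalized counts (SD, n = 3), a 32.0-fold ratio of summed, size-corrected counts with an exact 95% counting interval of 26.4 to 39.0. The deposited normalized table, which holds DHRS2 but neither of the others, gave 1010 to 1153 at 12 h and 29.7 to 43.1 at 0 h in MB468.

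TEK was at or near 0 in MB468 before 12 h. Its raw counts there were 0, 2, and 0 at 0 h, 0 in all 3 libraries at 0.5 h, 0, 4, and 0 at 2 h, and 75, 48, and 87 at 12 h. The 4 reads at 2 h all came from replicate 2, the library that stood apart. In MB468res-R8 the raw counts were 1, 0, and 4 at 0 h, 5, 0, and 0 at 0.5 h, 5, 4, and 2 at 2 h, and 4, 2, and 8 at 12 h. No library of the clone came near the MB468 libraries at 12 h, which measured 45.8, 51.8, and 55.1 normalized counts against 3.58, 2.28, and 7.55. In MB468 the difference from 0 h to 12 h was 6.05 on the log2 scale, and with only 2 counts at 0 h the ratio of 78.1 had a counting interval from 21.4 to 649. Counting intervals cover counting error only.

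ARHGAP25 had the same late high level in MB468 but began from a different place in the clone. In MB468 it measured 0.897, 1.59, and 0 normalized counts at 0 h, 5.21, 4.47, and 1.92 at 0.5 h, 1.34, 13.6, and 6.26 at 2 h, and 57.4, 55.0, and 62.7 at 12 h. By normalized count every 0.5 h library lay above every 0 h library, at raw counts of 7, 4, and 1 against 1, 2, and 0, and 43.4% of all genes tested did not overlap between these groups. In MB468res-R8 it measured 24.6, 23.5, and 13.1 at 0 h, 26.2, 21.8, and 16.0 at 0.5 h, 33.1, 44, and 33.6 at 2 h, and 9.84, 17.1, and 13.2 at 12 h. The clone held more ARHGAP25 than MB468 at 0, 0.5, and 2 h without overlap, and less at 12 h. Of all genes tested, 60.0%, 54.8%, and 58.5% did not overlap between the lines at 0, 0.5, and 2 h. The 12 h to 0 h difference in MB468 was 5.75 on the log2 scale, and its ratio of 60.5 rested on 3 counts at 0 h, with a counting interval of 20.5 to 295.

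**Figure D1:**
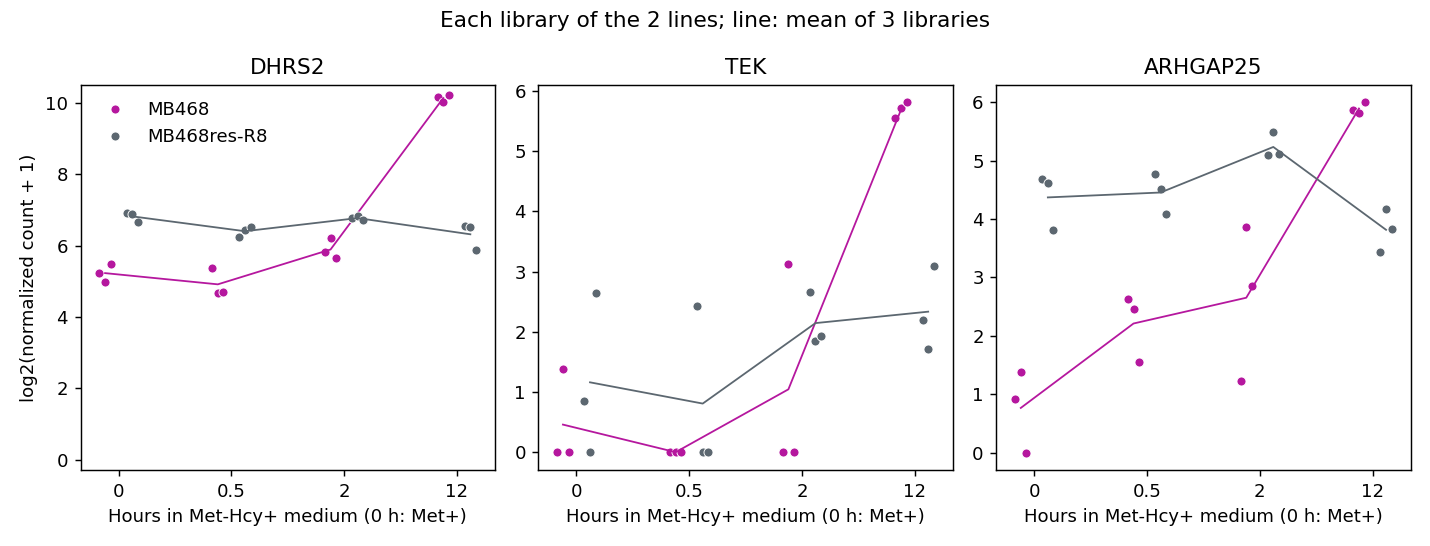
Each point is 1 library and each line joins means of 3 libraries of MB468 or MB468res-R8, with hours after the switch to Met-Hcy+ medium on the x axis and log2(normalized count + 1) on the y axis of each gene's panel. The MB468 libraries at 12 h are the highest of all 24 for each gene, and before 12 h the DHRS2 and ARHGAP25 points of MB468res-R8 lie above those of MB468.

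Set beside all genes, the rises were large but not the 3 largest. By fitted fold change in MB468 from 0 h to 12 h, TEK ranked 5, ARHGAP25 ranked 6, and DHRS2 ranked 7 of 14741. Above them came ITGBL1, a secreted integrin beta-like protein, at 8.47 on the log2 scale, GDA, guanine deaminase, at 7.28, C7orf57 at 6.98, and the RNA-binding protein gene RBMS3 at 6.29. ITGBL1, GDA, and C7orf57 had no read at 0 h, so their fitted values depend on the prior count added by the fit. Just behind DHRS2 at 4.97 came LY9, a lymphocyte surface receptor, at 4.91, then the transcription factor gene DMRT1 at 4.62 and the transglutaminase gene TGM4 at 4.62. With a prior count of 2 in place of the default, which shrinks low genes, DHRS2 ranked 1 at 4.90, ARHGAP25 ranked 4 at 4.35, and TEK ranked 5 at 4.33. In this comparison 36.1% of all genes were called higher at an adjusted p under 0.05, a figure given as background only since the comparison chose the members.

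In MB468res-R8 the same interval ranked TEK 142, DHRS2 11492, and ARHGAP25 12271 of 14741. The rank of TEK rests on 14 reads against 5 in groups that overlapped, and its change was not called. Subtracting the MB468 change from that of MB468res-R8 gave fitted values of -5.46 for DHRS2, -4.72 for TEK, and -6.40 for ARHGAP25 on the log2 scale, where 56.5% of all genes were called for such a difference. These are descriptions, because they use the libraries that chose the genes.

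**Figure D2:**
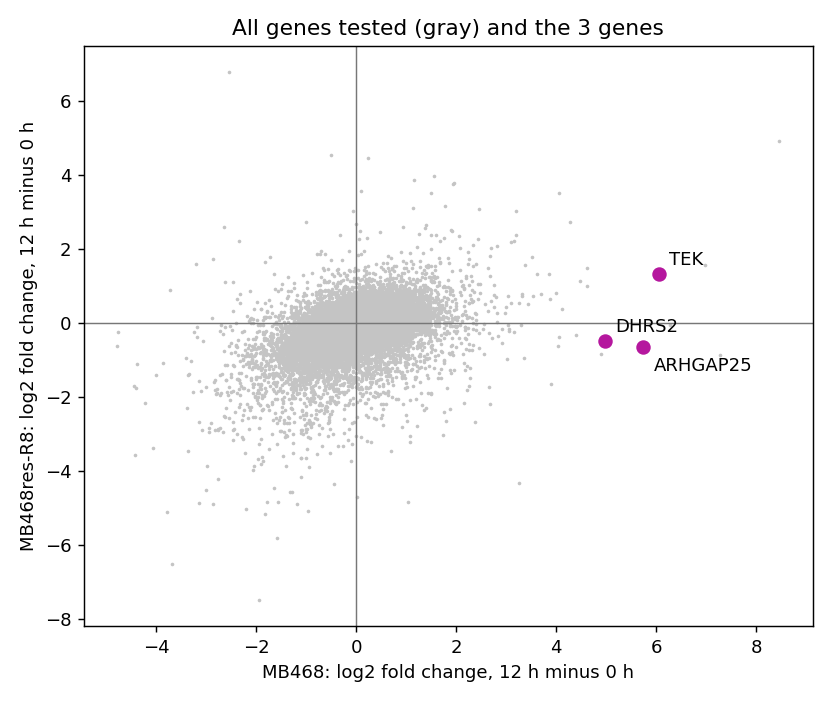
Each gray dot is 1 of 14741 genes, with the log2 fold change from 0 h to 12 h in MB468 on the x axis and that in MB468res-R8 on the y axis. The 3 genes lie at 4.97 to 6.05 on the x axis, at the right edge, and between -0.65 and 1.33 on the y axis.

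The order of the 8 groups by mean differed between the genes after the first place. For DHRS2 the order was MB468 12 h, MB468res-R8 at 0, 2, 0.5, and 12 h, then MB468 at 2, 0, and 0.5 h. Its neighbours that overlapped were MB468res-R8 0 h and 2 h, 0.5 h and 12 h, and 12 h and MB468 2 h, and also MB468 0 h and 0.5 h. For ARHGAP25 it was MB468 12 h, MB468res-R8 at 2, 0.5, 0, and 12 h, then MB468 at 2, 0.5, and 0 h, and neighbours from MB468res-R8 0.5 h down to MB468 0.5 h overlapped. For TEK each neighbouring pair below MB468 12 h overlapped. MB468 at 12 h exceeded the next group 10.0-fold for DHRS2, 11.4-fold for TEK, and 1.58-fold for ARHGAP25, by means of normalized counts.

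Levels per length set the 3 genes apart. At 12 h in MB468, FPKM values, which scale counts by the union of GENCODE exons and by library size, came to 6.59 ± 0.452 for DHRS2, 0.466 ± 0.0432 for TEK, and 0.469 ± 0.0317 for ARHGAP25 (SD, n = 3). At 0 h the same scale gave 0.215 ± 0.0388, 0.00486 ± 0.00842, and 0.00666 ± 0.00641. TEK and ARHGAP25 at 12 h, their highest, thus lay below the 0 h level of DHRS2 in MB468res-R8, 0.656 ± 0.0593.

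The 6 comparisons that follow contrast no group of MB468 at 0 h or 12 h and could be tested. The filter, the scaling, and the estimate of spread still used all 24 libraries. A choice by the rise from 0 h favours genes that start low in MB468. The comparisons between the lines at 0.5 h and 2 h are therefore not fully free of that choice. Over the 3 genes there were 18 tests, of which 7 were called by edgeR's quasi-likelihood test with adjustment over all genes. The 6 tests of TEK rest on a gene that the filter kept only through its MB468 12 h libraries. Its adjusted p-values, also those under other settings or with a library left out, are therefore descriptions from which no call is drawn. DHRS2 was called in 5 of the 6 comparisons, ARHGAP25 in 2, and TEK in none. Exact permutation tests of 3 against 3 libraries cannot go below p = 0.1, which they reached wherever groups did not overlap. The 3 comparisons within MB468res-R8 share its 0 h libraries.

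DHRS2 fell in MB468res-R8 at 12 h, the time at which it was highest in MB468. Its level went from 112 ± 10.1 to 80.6 ± 19.9 normalized counts (SD, n = 3), a log2 difference of -0.49 ± 0.152 (SE) with an edgeR adjusted p of 0.00482. Each 12 h library was below each 0 h library, as for 32.7% of all genes tested, and 64.6% did not overlap in either direction. Replicate 3 was the lowest 12 h library, and without it the difference was -0.27 at an adjusted p of 0.127. TEK measured 4.47 ± 2.75 against 2.01 ± 2.82 normalized counts, 1.33 ± 0.935 (SE) on the log2 scale at an adjusted p of 0.222, from 14 and 5 reads. Without 0 h replicate 3, which held 4 of those 5 reads, that difference was 2.997 at an adjusted p of 0.0415. No call is drawn from so few reads. ARHGAP25 measured 13.4 ± 3.63 against 20.4 ± 6.35, a difference of -0.65 ± 0.362 (SE) at an adjusted p of 0.116, and its groups overlapped. Thus 1 of 3 members was called, where 61.3% of all genes were called in either direction and 31.1% lower.

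At 0.5 h in the clone DHRS2 was also lower, at 83.9 ± 8.11 normalized counts, and the groups did not overlap, as for 45.0% of all genes tested. The difference was -0.44 ± 0.153 (SE) at an edgeR adjusted p of 0.0225. This call was lost when libraries were scaled by spike-ins (adjusted p = 0.181) and without 0 h replicate 1 (-0.40, adjusted p = 0.0922), 0 h replicate 2 (-0.42, adjusted p = 0.0643), or 0.5 h replicate 1 (-0.36, adjusted p = 0.128). TEK, with 5 reads in each group, and ARHGAP25, at 21.3 ± 5.12 against 20.4 ± 6.35 normalized counts, had log2 differences of 0.02 and 0.05 with adjusted p-values of 0.992 and 0.934. The interval for ARHGAP25 ran from -0.64 to 0.74. One of 3 members was called here, against 33.7% of all genes in either direction and 16.3% called lower.

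At 2 h in the clone none of the 3 was called, against 4.37% of all genes. DHRS2 was back at 108 ± 4.44 normalized counts, a log2 difference of -0.05 from 0 h with a 95% interval of -0.35 to 0.24. ARHGAP25 had its highest level of the clone, 36.9 ± 6.16, with all 3 libraries above all 3 at 0 h, a difference of 0.84 ± 0.318 (SE) that did not pass (edgeR adjusted p = 0.160), and 17.8% of all genes did not overlap between these groups. TEK had 11 reads against 5, with an interval of -1.05 to 2.95 on the log2 scale.

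Between 0.5 h and 2 h in MB468 DHRS2 rose while the others were too low to resolve. DHRS2 went from 29.9 ± 8.87 to 59.2 ± 13.0 normalized counts (SD, n = 3), 0.86 ± 0.217 (SE) on the log2 scale at an edgeR adjusted p of 0.00177. Its groups did not overlap, as for 39.0% of all genes tested. Leaving out a library in turn, replicate 2 at 2 h among them, kept the log2 difference between 0.70 and 1.23 with adjusted p-values of 0.000311 to 0.0266. ARHGAP25 measured 7.07 ± 6.17 against 3.87 ± 1.72, a difference of 0.57 at an adjusted p of 0.519. Without replicate 2 at 2 h, which held 7 of its 13 reads, the difference was -0.14. TEK had 4 reads against 0, all in that library, at an adjusted p of 0.129, and no fold is given. So 1 of 3 members was called, against 32.7% of all genes in either direction and 16.3% called higher.

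MB468res-R8 held more DHRS2 and ARHGAP25 than MB468 at both early times. At 0.5 h DHRS2 was higher by 1.38 ± 0.193 (SE) on the log2 scale, 83.9 against 29.9 normalized counts, with an edgeR adjusted p of 9.46e-08. ARHGAP25 was higher by 2.30 ± 0.452 (SE), 21.3 against 3.87, with an adjusted p of 4.31e-05. Neither gene's libraries overlapped between the lines, and 49.0% of all genes were called in either direction and 24.2% higher in the clone at 0.5 h. Over all genes tested, 54.8% did not overlap between the lines at 0.5 h and 58.5% at 2 h. At 2 h DHRS2 was higher by 0.92 ± 0.174 (SE; adjusted p = 2.06e-05) and ARHGAP25 by 2.52 ± 0.417 (SE; adjusted p = 2.13e-06), again without overlap, where 56.1% of all genes were called in either direction and 27.4% higher. TEK was not called at either time, with adjusted p-values of 0.1 at 0.5 h and 0.559 at 2 h, from 5 reads against 0 and 11 against 4. Without replicate 2 of MB468 at 2 h no MB468 read of TEK was left, and the adjusted p at 2 h was 0.0388. This set a handful of clone reads against none, so no fold is given and no call is drawn.

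At 0 h the fitted difference between the lines was 1.65 for DHRS2, 1.27 for TEK, and 4.26 for ARHGAP25, and at 12 h it was -3.81, -3.44, and -2.14 on the log2 scale. For DHRS2 and ARHGAP25 the lines thus changed places, with no overlap at either time, whereas TEK at 0 h had 5 reads against 2 and overlapped. Over all genes tested, 60.0% did not overlap between the lines at 0 h and 75.3% at 12 h. These are descriptions, since those libraries chose the genes.

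**Figure D3:**
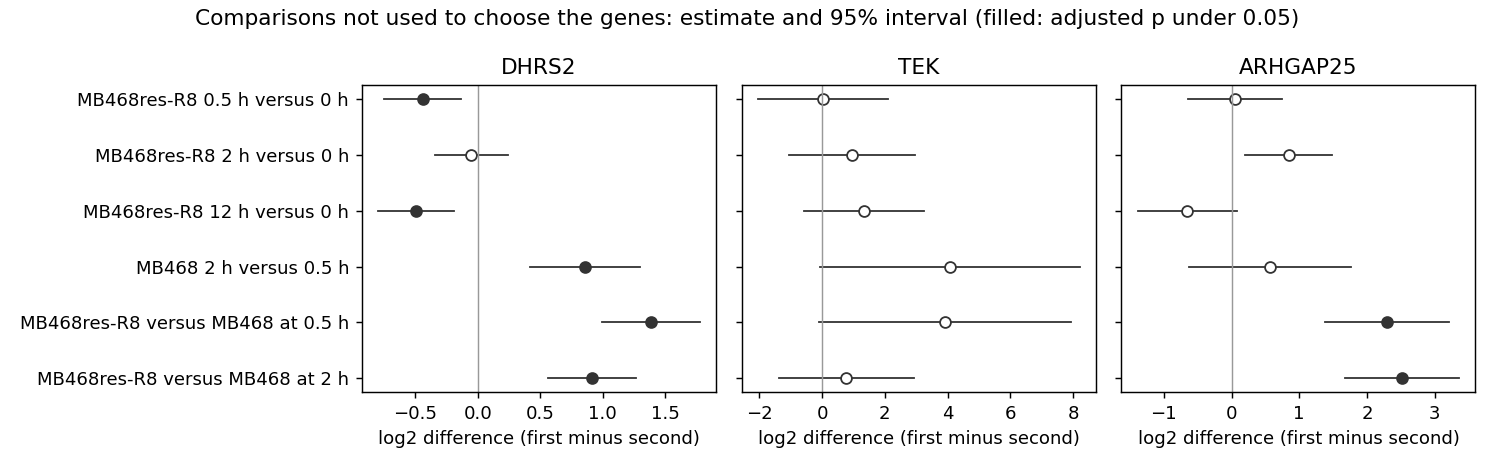
Points are log2 differences and bars their 95% intervals from the edgeR fit over all 24 libraries, for each gene in its own panel and scale. Rows are the 6 comparisons that contrast no MB468 group at 0 h or 12 h. Filled points passed an adjusted p under 0.05 and are found for DHRS2 in 5 rows and for ARHGAP25 in 2, while the bars of TEK all cross 0 and the points near 4 rest on a group with no read.

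Across all 24 libraries log2 CPM of the 3 genes correlated at a Pearson r of 0.865 for DHRS2 and TEK, 0.790 for DHRS2 and ARHGAP25, and 0.672 for TEK and ARHGAP25. Within the 12 MB468 libraries r was 0.962, 0.918, and 0.938, and within the 12 of MB468res-R8 it was -0.41, 0.467, and -0.12. The 3 MB468 libraries at 12 h, shared by every gene, lie apart in each of the MB468 values, and TEK has few reads elsewhere. These libraries, which helped to choose the genes, are also the highest of all 24 for each. Values over the 24 libraries, those of the genes named next among them, are therefore descriptions only. The genes most like DHRS2 over the 24 libraries were CSGALNACT2 (r = 0.959), C16orf91, TSSC4, BAP1, and FLAD1 (r = 0.947). Those most like TEK were DCLRE1B (r = 0.918), TSSC4, SLC7A6OS, ASTE1, and SYNE1 (r = 0.898). Those most like ARHGAP25 were RBAK (r = 0.908), PMS2CL, TRAPPC6B, CCDC80, and C12orf66 (r = 0.895).

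None of the tested genes beside the 3 on their chromosomes changed in MB468 at 12 h by more than 0.75 on the log2 scale. Downstream of DHRS2 lies DHRS4, its relative, which fell from 77.5 to 46.4 normalized counts in MB468 (log2 difference -0.75, edgeR adjusted p = 0.00223), and the antisense gene DHRS4-AS1, which rose from 208 to 292 (0.50, adjusted p = 3.21e-05). This pair overlaps on opposite strands, and the library kit does not mark strand, so their reads cannot be told apart where they overlap. The nearest tested gene upstream of DHRS2, LOC102724814, differed by -0.18 at an adjusted p of 0.498. Beside TEK, IFT74 differed by -0.16 (adjusted p = 0.145), and LRRC19, LINC00032, and EQTN had at most 6 reads in any library. Beside ARHGAP25, APLF differed by 0.28 (adjusted p = 0.145), and PROKR1, BMP10, and GKN2 had at most 1 read. JPH4, also upstream of DHRS2, had at most 2 reads.

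The relatives of DHRS2, other short-chain dehydrogenases and reductases, fell more often than they rose in both lines. At 12 h in MB468, 2 of 22 tested members rose and 16 fell, with a median log2 change of -0.43 against 0.01 over all genes, where 36.1% were called higher and 34.7% lower. In MB468res-R8, 1 rose and 11 fell, with a median of -0.27 against -0.02 over all genes, where 30.2% were called higher and 31.1% lower. With spike-ins 1 rose and 16 fell in MB468, and 1 rose and 7 fell in the clone. DHRS4, a peroxisomal carbonyl reductase, fell in both lines, by 1.02 in the clone (edgeR adjusted p = 4.13e-05). Its near-identical copy DHRS4L2, with which reads may be split, fell in MB468 by 0.74 (adjusted p = 0.000216). RDH14, a retinol dehydrogenase, rose in MB468 from 7.02 ± 2.47 to 37.0 ± 13.5 normalized counts, and BDH1, the ketone body enzyme, fell from 79.6 ± 45.8 to 23.1 ± 7.14. SPR, which makes tetrahydrobiopterin, rose in the clone from 471 ± 17.3 to 712 ± 50.3.

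MDM2 and genes of growth arrest and DNA damage moved both ways. In MB468 9 of 19 rose and 8 fell at 12 h, and in MB468res-R8 3 rose and 10 fell, with medians of 0.09 and -0.14. Of all genes, 36.1% were called higher and 34.7% lower in MB468, and 30.2% and 31.1% in the clone. Under spike-in scaling 3 list genes rose and 8 fell in MB468, with a median of -0.15 against -0.23 over all genes, and 0 rose and 7 fell in the clone. MDM2, the ligase that DHRS2 binds, was at 2257 ± 79.5 normalized counts at 0 h and 2828 ± 137 at 12 h in MB468, a log2 change of 0.33 (edgeR adjusted p = 8.24e-08) that was 0.09 and not called with spike-ins (adjusted p = 0.551). CDKN1A, the p21 inhibitor of cyclin-dependent kinases, fell by 1.49 in MB468 and fell by 2.41 in the clone, whereas GADD45A, a stress-response gene, rose in MB468 from 795 ± 39.3 to 1809 ± 173 and fell in the clone by 1.03.

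Partners of TEK moved both ways, and the other receptor and some ligands were barely read. Of 16 ligands, receptors, and adaptors of the angiopoietin pathway 12 were tested, and at 12 h 3 rose and 3 fell in MB468 while 6 rose and 4 fell in MB468res-R8, with medians of -0.01 and 0.17. Among all genes, 36.1% were called higher and 34.7% lower in MB468, and 30.2% and 31.1% in the clone. With spike-ins 1 rose and 4 fell in MB468 and 1 rose and 3 fell in the clone, and with DESeq2 size factors 2 rose and 4 fell in MB468. ANGPT1, the activating ligand, was at 107 ± 19.2 normalized counts at 0 h and 103 ± 9.95 at 12 h in MB468, a difference of -0.08 at an edgeR adjusted p of 0.662. ANGPT2 and ANGPT4, the other ligands, had at most 4 and 9 reads in any library, and the related receptor TIE1 had at most 1. PTPRB, the phosphatase that acts on TEK, was at 17.2 ± 0.666 and 26.4 ± 1.78 in MB468 (adjusted p = 0.0502). TNIP2, an adaptor, rose in MB468 by 0.66 (adjusted p = 1.31e-10) and GRB14, an inhibitory adaptor of receptor kinases, fell by 0.85 (adjusted p = 1.44e-08), while FOXO1 fell in the clone by 0.70 (adjusted p = 3.78e-07).

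Relatives of ARHGAP25, the GTPase-activating proteins of the ARHGAP family and RAC, moved in both directions in each line. At 12 h 17 of 35 tested members rose and 9 fell in MB468, and 10 rose and 19 fell in MB468res-R8, with medians of 0.24 and -0.19. Over all genes, 36.1% were called higher and 34.7% lower in MB468, and 30.2% and 31.1% in the clone. With spike-ins 11 members rose and 11 fell in MB468, and 10 rose and 9 fell in the clone. ARHGAP24, one of the closest relatives, was at 114 ± 8.12 normalized counts at 0 h and rose to 192 ± 5.07 in MB468 (log2 0.74, edgeR adjusted p = 1.33e-07) and was at 252 ± 10.3 and 225 ± 5.02 in the clone (adjusted p = 0.163). ARHGAP22, another, rose in both lines, by 0.68 in MB468 and 0.96 in the clone. ARHGAP11A rose in MB468 by 1.41 and ARHGAP4 fell by 1.35, and ARHGAP23 rose in the clone by 1.20.

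Of RAC GTPases, their activators, and effectors, 6 of 23 tested rose and 11 fell in MB468 at 12 h. In MB468res-R8 8 rose and 5 fell, and the medians of the 2 lines were -0.14 and 0.02. Among all genes, 36.1% were called higher and 34.7% lower in MB468, and 30.2% and 31.1% in the clone. With spike-ins 3 list genes rose and 3 fell in the clone. DOCK2, a RAC activator of white blood cells, climbed in MB468, from 15.9 ± 6.31 normalized counts to 148 ± 14.6, by 3.16 on the log2 scale at an edgeR adjusted p of 1.18e-12. In the clone DOCK2 was at 0.700 ± 0.659 and 3.57 ± 3.51 (adjusted p = 0.0247), and the difference between the lines was not called (adjusted p = 0.613). VAV1, another activator of such cells, fell in both lines, with log2 changes of -2.14 and -2.29. RAC1 and RAC2, the GTPases themselves, had log2 changes of -0.16 and -0.49 in MB468, both called.

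**Figure D4:**
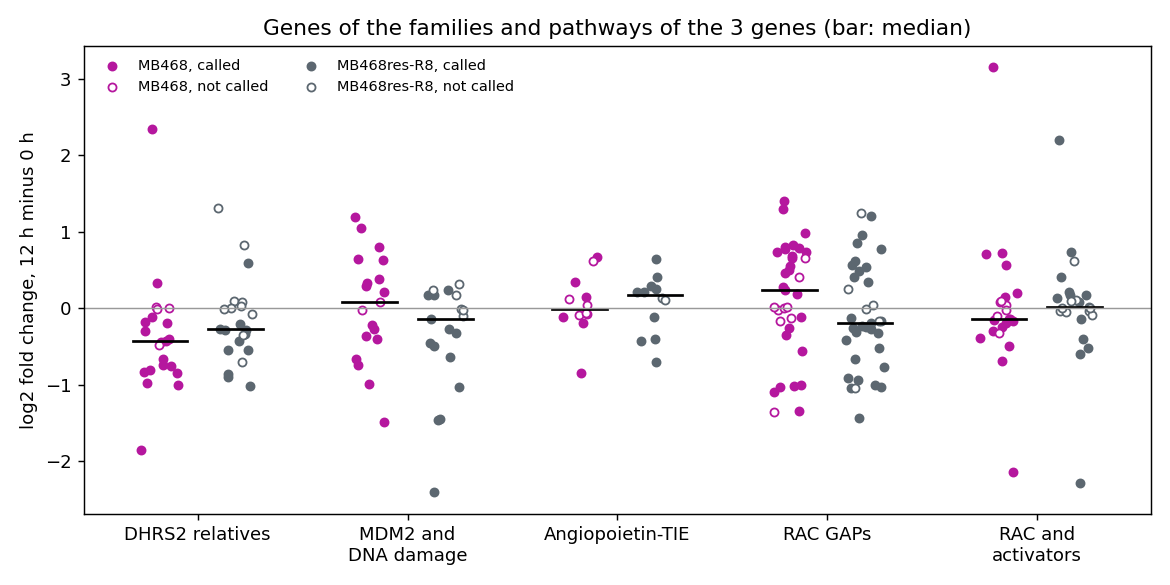
Each point is 1 tested gene of 5 lists, with its log2 fold change from 0 h to 12 h on the y axis, MB468 in magenta and MB468res-R8 in gray, filled where the edgeR adjusted p was under 0.05, and black bars mark medians. The DHRS2 relatives lie mostly below 0 in both lines, at medians of -0.43 and -0.27, and the highest point is DOCK2 in MB468 at 3.16.

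Since TEK and ARHGAP25 are known from endothelial and blood cells, markers of these were examined. Of 20 endothelial markers ERG, EMCN, ECSCR, and ICAM2 had no read in any library, and 9 of 20 never passed 10 reads. Their summed level in MB468 was 343 to 378 CPM at 0 h and 203 to 247 CPM at 12 h, and in MB468res-R8 it was 159 to 172 CPM and 121 to 132 CPM. Of 11 tested, 3 rose and 6 fell in MB468 (1 and 6 with spike-ins) and 2 rose and 5 fell in the clone at 12 h. For this list and the next, the background over all genes was 36.1% called higher and 34.7% lower in MB468, and 30.2% and 31.1% in the clone. KDR, the VEGF receptor, fell in MB468 from 6284 ± 421 to 3590 ± 378 normalized counts. This gene alone made up most of the summed endothelial level in MB468 at both times. SOX18 rose in MB468 from 3.19 ± 2.76 to 11.3 ± 1.56 normalized counts and CDH5, VE-cadherin, fell from 36.2 ± 15.1 to 19.5 ± 6.85. Of 21 blood cell markers 12 never passed 10 reads, among them PTPRC, the pan-leukocyte CD45, at up to 7 reads in a library. Their summed level was 318 to 334 CPM at 0 h and 201 to 233 CPM at 12 h in MB468, and 306 to 321 CPM and 290 to 295 CPM in the clone. Of 8 tested, 1 rose and 7 fell in MB468, and 1 rose and 3 fell in the clone (none and 3 with spike-ins), VAV1 and RAC2 being on both this and the RAC list. The riser in MB468 was ITGB2, from 28.9 ± 4.23 to 58.3 ± 7.55. The part of such cells in the levels of the 3 genes was not tested.

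The 10 epithelial and triple-negative line markers summed to 8453 to 8967 CPM at 0 h and 9310 to 9468 CPM at 12 h in MB468, far above the other lists. Of 9 tested, 2 rose and 4 fell in MB468 (1 and 6 with spike-ins), and 4 rose and 4 fell in MB468res-R8 (2 and 3 with spike-ins). Over all genes, 36.1% were called higher and 34.7% lower in MB468, and 30.2% and 31.1% in the clone. EGFR rose in MB468 by 0.91 on the log2 scale and KRT19 fell by 1.37, while EPCAM rose in the clone by 0.35 and ESR1, at 237 ± 33.0 normalized counts at 0 h, fell by 1.11. In bulk RNA, more cells that express a gene and more RNA per cell cannot be told apart.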

How the data were processed

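RNA of 24 libraries (poly(A)-selected, single-end reads, with ERCC spike-ins) was aligned by the authors to a reference of GRCh38/hg38 plus ERCC sequences, with HISAT2 2.1.0 per the submitters' processing notes, and counted per gene with featureCounts of Subread 1.5.3. The count table they deposited holds raw counts per gene and was the source of all values. The deposited signal table holds DESeq2-normalized counts of 12814 entries in 18 libraries and was used for DHRS2 only. A deposited table of the authors' own fold changes and p-values was not used.

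The edgeR package 4.0.16 was run in R 4.3.3. Spike-ins were left out, filterByExpr (minimum count 10, minimum total 15) kept 14741 genes, and a quasi-likelihood model with 1 mean per group was fitted over all 24 libraries, with TMM scaling and edgeR's default prior count for fold changes. The threshold was an adjusted p (Benjamini-Hochberg, over all genes) under 0.05. On simulated counts for the MB468res-R8 12 h comparison, with 14466 genes, 95.0% of genes changed 2-fold and 100% of those changed 4-fold were recovered. The changed genes were drawn only from those above an average log2 CPM of 0. TEK, at -0.88, lay below that limit and ARHGAP25, at 0.14, just above it, so these rates do not cover TEK. The 3 genes, the 8 gene lists, and the comparisons were chosen with earlier results of these data known. Genes named beside them were the 5 with the highest Pearson r, those next in rank, 13 with a stated role, the largest called rise and fall of each list in each line at 12 h, and the 2 nearest on each side; KDR, PTPRC, and the markers at 0 were named after their values were seen. One gene is not reported here. Alternatives were DESeq2 1.42.0 (its test and its size factors), spike-in scaling, other filters, a prior count of 2, only the groups compared, a replicate block, and leaving out each library. Locations are from GENCODE 44, and upstream sequences from RefSeq.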

Additional observations from a re-analysis of the deposited data

Results flagged for a closer look

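DHRS2 moved in opposite directions in the lines at 12 h, with every MB468 library above and every MB468res-R8 library below its 0 h group. Of all genes tested, 74.9% in MB468 and 64.6% in MB468res-R8 did not overlap between 0 h and 12 h. The call of the fall in MB468res-R8 depended on 1 library. Without 12 h replicate 3 the log2 difference was -0.27 at an edgeR adjusted p of 0.127. The fitted difference, MB468res-R8 minus MB468, was -5.46 on the log2 scale, and it was not tested because the MB468 libraries chose the gene.

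For genes named from the lists, the 12 h response of one line minus that of the other was tested in the edgeR model. MDM2 (-0.09, adjusted p = 0.272), VAV1 (-0.15, adjusted p = 0.691), and BDH1 (1.15, adjusted p = 0.155) were among those that did not pass. BDH1 passed with spike-in scaling (1.39, adjusted p = 0.00194). The genes below passed an adjusted p under 0.05, as 56.5% of all genes did. Differences above 0 mean a higher log2 change in MB468res-R8, whether or not the lines moved the same way. They were 0.24 for RAC1, 0.67 for RAC2, 0.79 for SPR, 0.42 for GRB14, 1.22 for KRT19, and 0.36 for EPCAM. Differences below 0 were -0.92 for CDKN1A, -0.90 for ARHGAP24, -2.22 for GADD45A, -0.26 for TNIP2, -0.64 for FOXO1, -1.86 for CDH5, -1.21 for ITGB2, -0.66 for EGFR, and -0.93 for ESR1. With spike-in scaling the calls of TNIP2 (-0.0050, adjusted p = 0.989), FOXO1 (-0.38, adjusted p = 0.183), ITGB2 (-0.95, adjusted p = 0.128), and EGFR (-0.41, adjusted p = 0.0536) were lost, and with DESeq2 size factors that of TNIP2 (-0.23, adjusted p = 0.0606).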

How the results depend on the processing

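Spike-in scaling changed the most. It lowered the genes called to 2023 at 0.5 h, 180 at 2 h, and 5887 at 12 h in MB468res-R8, and to 3995 and 4888 between the lines at 0.5 h and 2 h. It moved the median log2 difference of all genes to -0.22 in MB468 from 0.5 h to 2 h and to -0.23 from 0 h to 12 h, and to 0.20 in the difference between the lines. The split of higher and lower calls went from 2396 and 2426 to 677 and 3019, from 5317 and 5113 to 2538 and 5922, and from 3863 and 4473 to 4052 and 1745. With it, DHRS2 in MB468res-R8 at 0.5 h was -0.39 and no longer called, and list genes named in the text that lost their call in the clone at 12 h included DHRS4L2, MDM2, PTPRB, RAC1, and RAC2.

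TEK depended on single libraries. In MB468res-R8 at 0.5 h it turned to -0.0074 with a prior count of 2 and to -0.26 in DESeq2, and ranged from -3.89 to 1.685 when a library was left out. Against groups with no read its fitted values depend on the prior count and are no folds. Without the low-count filter TEK had a fitted 4.09 (edgeR adjusted p = 0.0463) in MB468 from 0.5 h to 2 h. Between the lines at 0.5 h it had 3.91 (adjusted p = 0.0355). Both were set against MB468 at 0.5 h, with no read, so no call is drawn. Leaving out a library gave TEK 0.76 to 2.997 in MB468res-R8 at 12 h, 0.0 to 4.77 in MB468 from 0.5 h to 2 h, 0.0 to 4.40 and 0.094 to 4.88 between the lines at 0.5 h and 2 h, 5.49 to 8.65 in MB468 at 12 h, and -7.33 to -3.05 in the difference between the lines. The values of 8.65 and -7.33 came without MB468 0 h replicate 2, which held both of its reads. A prior count of 2 gave 4.33 for TEK and 4.35 for ARHGAP25 in MB468 at 12 h and -4.94 for ARHGAP25 in the difference between the lines. ARHGAP25 ranged from -0.16 to 0.215 in MB468res-R8 at 0.5 h and from -0.14 to 1.10 in MB468 from 0.5 h to 2 h. DHRS2 ranged from -0.51 to -0.36 at 0.5 h and from -0.60 to -0.27 at 12 h in MB468res-R8. Genes called at 2 h in MB468res-R8 ranged from 348 without its replicate 2 at 2 h to 667, with 410 without replicate 3 at 0 h.

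The labels do not say whether replicate numbers mark pairs, and the main model did not pair them. In no comparison did all 3 same-numbered pairs deviate together at a correlation over 0.1. In MB468res-R8 from 0 h to 2 h (mean r = 0.277), in MB468 from 0 h to 0.5 h (0.0762), and between the lines at 0.5 h (0.173), 2 of 3 pairs did so. A replicate block changed no call of the 3 genes, with 4870 genes called at 0.5 h and 8940 at 12 h in MB468res-R8, and DHRS2 at -0.49 (adjusted p = 0.00613) at 12 h.

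The calls of DHRS2 in MB468 from 0.5 h to 2 h and of DHRS2 and ARHGAP25 between the lines at 0.5 h and 2 h held under every alternative that gave a value. With groups of a few reads, depth did not allow differences in TEK outside MB468 at 12 h to be resolved. By Spearman in place of Pearson, 0, 1, and 3 of the 5 genes most like DHRS2, TEK, and ARHGAP25 were shared.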
